A study of Mus musculus with 12 samples.

Results

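The nuclear subunits of oxidative phosphorylation (OXPHOS) were followed in the colon of mice with dextran sulfate sodium (DSS) colitis, with or without oral L-arginine (L-Arg). Members were chosen by gene symbol alone: Ndufa, Ndufb, Ndufc, Ndufs or Ndufv with a number, Sdha to Sdhd, all symbols that start with Uqcr or Atp5, and Cox4 to Cox8 with a letter and number. A gene entered where a probe set of the array named it and no other gene, and its brightest probe set stood for it. This gave 78 genes of the 19938 on the array. By symbol, 35 fell to complex I, 4 to complex II, 8 to complex III, 14 to complex IV and 17 to complex V. Ndufa4 and Ndufa4l2 were thus counted with complex I by name only. The patterns pass over Cox4i1, Cox4i2, Cox7a2l, Ndufab1 and the cytochromes c and c1, which are given separately. Probe sets shared by several genes were left out, among them those of Ndufb4 and Cox7c. Of 13 subunits encoded by mitochondrial DNA that were looked for by symbol, 0 had a probe set used here, so the values concern the nuclear part of the system only.

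OXPHOS is the last stage of energy release from food. Complexes I and II take electrons from NADH and succinate, complex III passes them to cytochrome c, complex IV hands them to oxygen, and complex V (ATP synthase) uses the proton gradient built on the way to make ATP. Most subunits are encoded in the nucleus and imported, and each complex needs dedicated assembly factors. Colonocytes, the absorptive cells of the colon surface, are known to burn butyrate made by bacteria and depend strongly on mitochondria.

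Each of the 12 arrays was 1 male wild-type C57BL/6 mouse, 7 weeks old at the start and 8 weeks and 3 days at sacrifice on day 10, with 3 mice in each group. DSS+L-Arg mice drank 4% DSS for 6 days and then 1% L-Arg for 4 days. DSS mice drank 4% DSS for 6 days and then water for 4 days, control+L-Arg mice drank water and then 1% L-Arg for 4 days, and control mice drank water only. RNA came from whole pieces of colon, which hold epithelium, muscle, immune and other cells. Fewer cells of a type and less RNA per cell therefore cannot be told apart. By the methods of the study a proximal and a distal piece of each colon were pooled.

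The values are log2 signals normalized so that all arrays have nearly the same distribution (array medians 6.49 to 6.64), and a shift of most genes together would be lost. Levels of different genes cannot be set against each other on such arrays, so only differences within a gene are given. Of the 18 colonocyte markers, among them Krt20, Slc26a3 and Cdh1, 1 was called different in DSS against control colons (Car4, a carbonic anhydrase of surface colonocytes, at a log2 fold change of -0.58 ± 0.10 (SE), adjusted p = 0.011 in limma). Of the neutrophil markers 10 of 14 were called higher in DSS colons, and 7 of 12 monocyte and macrophage markers were called higher. Arrays also differed within groups in several marker lists. The median of 9 Hox genes that mark posterior position along the colon, from the control mean, lay between -0.99 and 0.33 in DSS+L-Arg, -0.86 and -0.13 in DSS, -0.7 and 0.82 in control+L-Arg and -1.03 and 0.48 in control mice, and 0 of the 9 were called in any comparison. Smooth muscle and adipocyte markers spread most in control+L-Arg mice, with medians from -0.69 to 1.09 and from -0.25 to 0.54. Transcripts of male accessory glands and germ cells stood at a median of 1.28 above the control mean on the array of control mouse 2, against -0.78 and -0.17 on the other control arrays. Neutrophil markers stood at a median of 3.91 above the control mean on the array of DSS mouse 3, against 1.86 and 1.25 in the other DSS mice.

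Promoters of OXPHOS genes are known in mammals for binding nuclear respiratory factor 1 (NRF1), ETS-family factors such as GABP, YY1 and estrogen-related receptors. RefSeq promoter windows (250 bases before to 50 after the start, GRCm38.p6) were found for 65 of the 78 members and 17491 protein-coding genes in all. Both strands were searched for 1 spelling of each motif, and a gene counted as holding it where any of its windows did. The NRF1 letters GCGCANGCG were in 19 of 65 members (29.2%), against 9.6% of all genes. The ETS letters CCGGAAG were in 17 members (26.2%), against 12.9% of all genes. The YY1 letters AAGATGGCG were in 7 members (10.8%), against 2.1%, and the estrogen-related receptor letters TCAAGGTCA were in 2 members (3.1%), against 0.4%. In all, 35 of 65 members (53.8%) held at least 1 of these spellings, against 22.1% of all genes. A match is a description and not a binding site, and the NRF1 letters are close to their own reverse complement, so that neighbouring matches can overlap.

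4 windows are shown because the results turn on the muscle-type subunit Cox7a1, its ubiquitous partner Cox7a2, and members with matches for comparison. Capitals mark the matches. The Cox7a1 window (chr7:30183921-30184220, plus strand) and the Cox7a2 window (chr9:79759804-79760103, minus strand) hold none of the 4 spellings. The Cox7a1 window has 7 CG pairs and the Cox7a2 window 20. The Cox6a1 window (chr5:115348909-115349208, minus strand) holds 3 NRF1 matches, of which a pair overlap, and an ETS match. The Ndufs6 window (chr13:73328433-73328732, minus strand) holds an NRF1 match and, 34 bases into the transcript, a YY1 match.
Cox7a1: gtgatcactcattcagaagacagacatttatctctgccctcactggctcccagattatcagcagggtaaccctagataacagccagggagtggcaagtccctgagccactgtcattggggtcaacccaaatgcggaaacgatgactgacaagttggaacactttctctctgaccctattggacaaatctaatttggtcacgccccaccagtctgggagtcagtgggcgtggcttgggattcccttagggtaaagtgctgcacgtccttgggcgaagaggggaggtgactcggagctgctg
Cox7a2: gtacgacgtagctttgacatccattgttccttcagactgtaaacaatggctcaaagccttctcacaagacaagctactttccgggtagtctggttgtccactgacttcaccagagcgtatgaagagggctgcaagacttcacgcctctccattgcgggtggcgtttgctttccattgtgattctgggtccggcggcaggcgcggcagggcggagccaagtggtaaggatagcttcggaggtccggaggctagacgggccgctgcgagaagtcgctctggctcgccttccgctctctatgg
Cox6a1: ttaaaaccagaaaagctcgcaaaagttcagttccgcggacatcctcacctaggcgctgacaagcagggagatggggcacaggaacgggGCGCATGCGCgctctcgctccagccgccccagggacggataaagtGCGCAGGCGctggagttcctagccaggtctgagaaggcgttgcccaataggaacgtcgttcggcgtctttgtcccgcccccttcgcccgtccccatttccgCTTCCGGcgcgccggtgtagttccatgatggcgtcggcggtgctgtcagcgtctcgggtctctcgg
Ndufs6: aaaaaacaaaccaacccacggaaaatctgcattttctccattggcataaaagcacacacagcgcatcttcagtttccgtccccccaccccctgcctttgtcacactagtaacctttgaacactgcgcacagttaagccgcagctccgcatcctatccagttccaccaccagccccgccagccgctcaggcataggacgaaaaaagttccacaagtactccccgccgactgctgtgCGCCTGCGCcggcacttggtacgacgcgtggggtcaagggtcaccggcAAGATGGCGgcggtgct

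The first comparison asks what DSS injury, 4 days after DSS was withdrawn, did to these transcripts. 3 of the 78 members (3.8%) were called lower in DSS than in control colons, against 2.23% of all genes, and 0 were called higher, against 1.8% of all genes. A share of calls this near the background is not a result about the members as a group. The 3 were Cox7a1, the muscle-type isoform of complex IV subunit 7a, and Ndufa2 and Ndufa1, accessory subunits of complex I. The call rule was an adjusted p under 0.05 in limma, with all 12 arrays in 1 model and adjustment over all 19938 genes. At an unadjusted p under 0.05 there were 18 members (23.1%), against 19.6% of all genes, and all 18 were lower in DSS. By an unequal-variance test no member passed after adjustment (8 at an unadjusted p under 0.05). SAM, the permutation method that the study names, gave 13 at an unadjusted p under 0.05. As run here it could make no adjusted call. Its reference values hold the true order of the labels and its mirror, which keeps every adjusted p above 0.05.

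Cox7a1 stood apart from every other member. Its log2 values were 10.11, 8.91 and 8.83 in DSS mice, against 11.46, 11.15 and 11.28 in control mice. All DSS arrays lay below all control arrays, and DSS mouse 1 lay nearest to them. The log2 fold change was -2.02 ± 0.28 (SE, n = 3 mice per group; 4.04-fold lower, adjusted p = 0.0041 in limma), and 34 of all genes had a larger decrease. The call held without any single array, with log2 fold changes of -2.43 to -1.79, whereas a fit of the DSS and control arrays alone gave an adjusted p of 0.059. Cox7a1 is also in a list of genes that the study chose on these same arrays, so the call is not independent evidence of that choice.

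Ndufa2, a complex I subunit on the side that takes up NADH, had log2 values of 9.47, 8.89 and 9.82 in DSS mice, against 10.28, 10.25 and 10.39 in control mice. The groups did not overlap, and DSS mouse 2 was lowest. The log2 fold change was -0.92 ± 0.18 (1.89-fold lower, adjusted p = 0.019), and the call was lost without control mouse 1 (adjusted p = 0.064) or control mouse 3 (0.087). Ndufa1, a small membrane subunit needed for the assembly of complex I, had log2 values of 8.17, 8.45 and 8.52 in DSS mice, against 8.98, 8.93 and 8.97 in control mice. The control values lay within 0.05 of each other and above every DSS value. The log2 fold change of Ndufa1 was -0.58 ± 0.14 (1.5-fold lower, adjusted p = 0.04). This call was the least firm, with an adjusted p of 0.058 to 0.13 without any 1 of control mice 1, 2 and 3, control+L-Arg mouse 1, DSS mice 1 and 2 or DSS+L-Arg mouse 3.

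**Figure D1:**
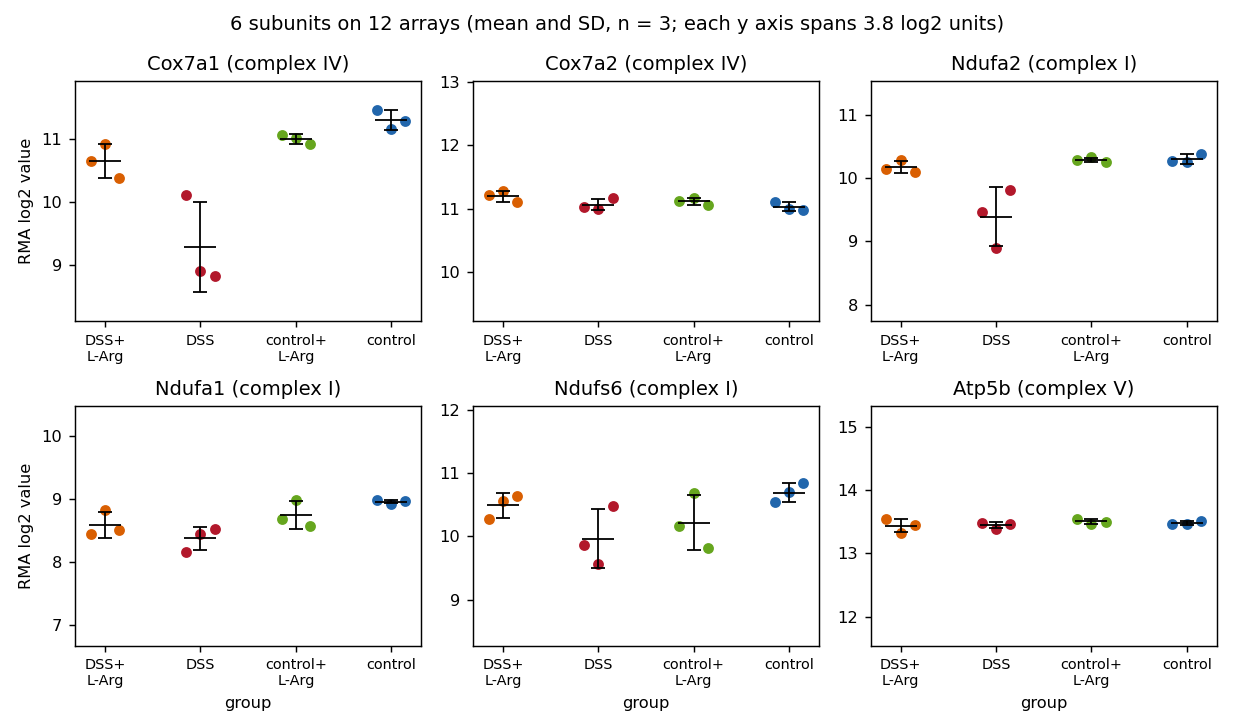
RMA log2 values of 6 subunits on the 12 arrays, by group. Points are mice, and the bar and whiskers are the mean and SD (n = 3). Each y axis covers the same number of log2 units but starts at its own value. Cox7a1, Ndufa2 and Ndufa1 are lower in all DSS mice than in all control mice, Ndufs6 differs widely between DSS mice, and Cox7a2 and Atp5b stay close to 1 level.

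Beyond these calls, most members stood slightly lower in DSS than in control colons. The log2 fold change was below 0 in 68 of 78 members (87.2%), against 53.1% of all genes and 56.9% of the 14510 genes that passed a filter on dim values. The median over the members was -0.14, against -0.01 over all genes and -0.04 over the genes that passed the filter. In 31 members (39.7%) all DSS values lay below all control values, against 14.3% of all genes and 17.5% of those that passed the filter. In 0 members did all DSS values lie above them, against 10.7% of all genes and 10.9% of those that passed the filter. No test was made of these counts, since the subunits of a tissue share their cells and are not independent. The differences were small: for 68 of 78 members (87.2%) the 95% interval stayed within a 1.5-fold change in either direction, against 72.9% of all genes. This share also depends on precision, and the median SE was 0.10 over the members and 0.12 over all genes.

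The size of this shift rested on 1 mouse more than on the others. The median of the members lay at -0.11, -0.24 and -0.03 from the control mean in DSS mice 1, 2 and 3. DSS mouse 2 was the lowest in every complex, and DSS mouse 3, with the highest neutrophil markers, was the nearest to the controls. Without DSS mouse 2 the median log2 fold change was -0.08, and 62 of 78 members stood below 0, against 53.5% of all genes. Without DSS mouse 3 the median was -0.18, and 52 members had all DSS values below all control values, against 21.7% of all genes. Without control mouse 2 the median was -0.15 and 69 members stood below 0.

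**Figure D2:**
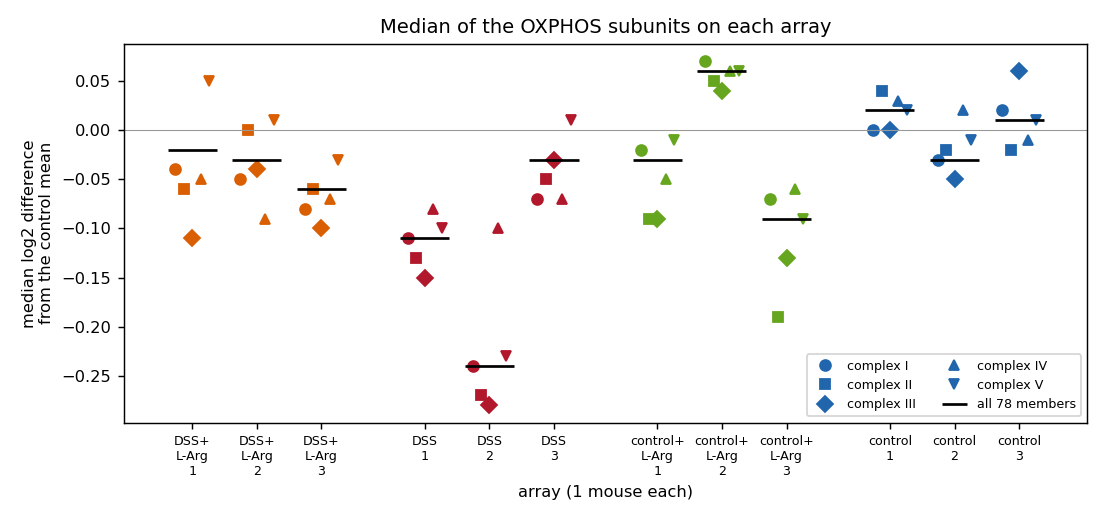
Median log2 difference from the control mean on each array, for all 78 members (bars) and for complexes I to V (symbols). The control arrays are part of the mean they are set against. DSS mouse 2 has the lowest median of all members (-0.24), and control+L-Arg mouse 2 the highest (0.06).

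The 5 complexes had medians close to each other in this comparison. The median log2 fold change, DSS over control, was -0.15 in complex I, -0.15 in complex II, -0.16 in complex III, -0.07 in complex IV and -0.13 in complex V. Without DSS mouse 2 these medians were -0.08, -0.08, -0.09, -0.07 and -0.04 in the same order, so complex IV was no longer the nearest to 0. The number of members below 0 was 33 of 35, 3 of 4, 7 of 8, 11 of 14 and 14 of 17 in the same order. Each complex held members on both sides of 0. Complex IV had both the lowest and the highest value, Cox7a1 at -2.02 and Cox8c at 0.29 ± 0.13 (adjusted p = 0.27 in limma). Cox8c was dim, with a control mean of 5.92 near the floor of 5.89 of the filter on dim genes.

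Of complex I, the NADH dehydrogenase, 6 core subunits were among the members. Ndufs1, the largest iron-sulfur subunit, was at -0.27 ± 0.14 (adjusted p = 0.33), and Ndufs8 at -0.27 ± 0.11 (adjusted p = 0.19). Ndufv1, which binds NADH, and Ndufv2 were both at -0.17, Ndufs7 at -0.13 and Ndufs3 at -0.03. None of these core subunits was called. Larger values were found among small accessory subunits. Ndufs6, a zinc-binding subunit, had log2 values of 9.86, 9.56 and 10.48 in DSS mice, against 10.54, 10.7 and 10.84 in control mice (log2 fold change -0.73 ± 0.24, adjusted p = 0.12). Ndufc1 was at -0.5 ± 0.15 (adjusted p = 0.096), and Ndufs5 at -0.53 ± 0.17 (adjusted p = 0.11). Ndufs6, Ndufc1 and Ndufs5 passed the threshold without DSS mouse 3 and with array weights, in addition to the 3 calls above.

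In complex II, succinate dehydrogenase, Sdha, the flavoprotein that oxidizes succinate, was at -0.26 ± 0.09 (adjusted p = 0.14). Its values of 11.72, 11.43 and 11.64 in DSS mice lay below 11.86, 11.86 and 11.85 in control mice. Sdhb, the iron-sulfur subunit, was at -0.16, and the membrane anchors Sdhc and Sdhd at -0.13 and 0.03. In complex III, the lowest was Uqcrfs1, the Rieske iron-sulfur protein, at -0.28 ± 0.12 (adjusted p = 0.23), with DSS values of 8.88, 8.85 and 9.22, against control values of 9.35, 9.2 and 9.23. The core proteins Uqcrc1 and Uqcrc2 were at -0.17 and -0.15. No member of complexes II and III was called.

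In complex V the alpha, beta, gamma and delta subunits of the catalytic head stayed near 0. Atp5b, the catalytic beta subunit, had log2 values of 13.48, 13.39 and 13.47 in DSS mice, against 13.46, 13.47 and 13.51 in control mice (log2 fold change -0.03, 95% interval -0.21 to 0.14). The alpha, gamma and delta subunits Atp5a1, Atp5c1 and Atp5d were at -0.02, 0.03 and -0.04, and the epsilon subunit Atp5e at -0.18. The genes for the proton-carrying c ring, which encode the same mature protein, were at -0.2 (Atp5g1), 0.08 (Atp5g2) and -0.13 (Atp5g3). The lowest was Atp5j2, a small subunit of the membrane part, at -0.35 ± 0.11 (adjusted p = 0.1), with values of 12.19, 11.85 and 12.26 in DSS mice, against 12.46, 12.43 and 12.44 in control mice.

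**Figure D3:**
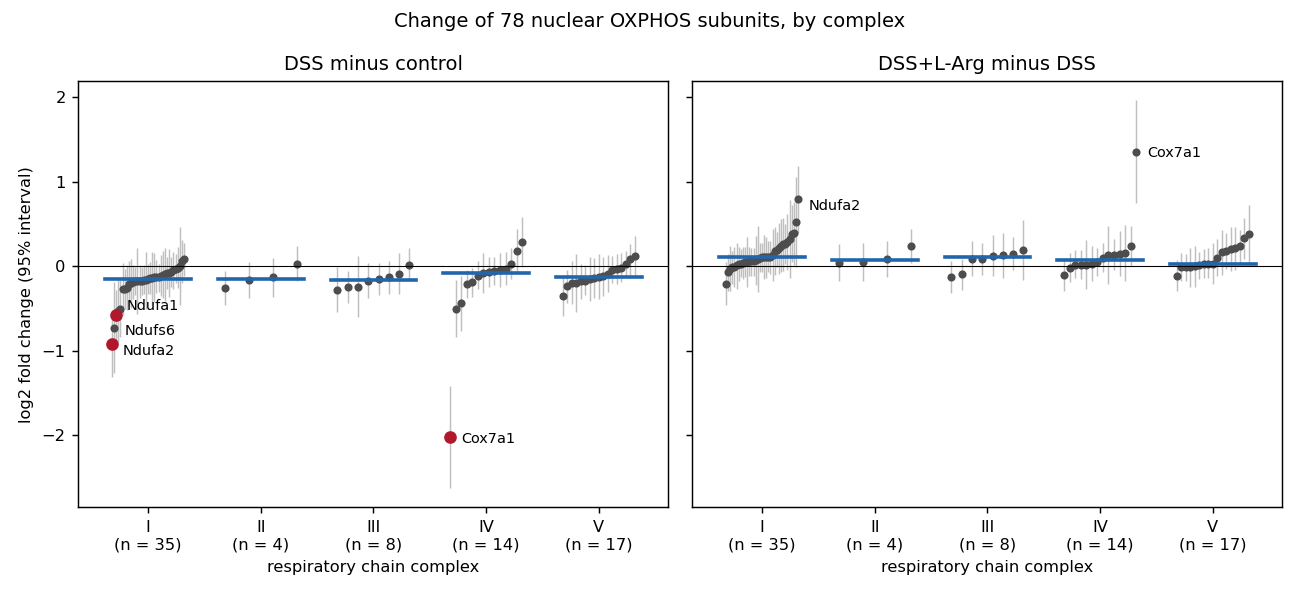
Log2 fold change of each member with its 95% interval, by complex, for DSS minus control (left) and DSS+L-Arg minus DSS (right). Red points were called at an adjusted p under 0.05 in limma, and blue lines are the medians of the complexes. Most points of the left panel lie just below 0, Cox7a1 lies at -2.02 there, and no point of the right panel was called.

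Complex IV has subunits with tissue-restricted isoforms, so each was set against its partner on the same array. In mammals Cox7a1, Cox6a2 and Cox8b are the forms of heart and skeletal muscle, Cox7a1 is also found in brown fat, and Cox6b2, Cox7b2 and Cox8c are known from testis. Cox7a2, the ubiquitous partner of Cox7a1, had log2 values of 11.03, 10.99 and 11.16 in DSS mice, against 11.11, 10.99 and 10.98 in control mice (log2 fold change 0.03). The difference between the changes of Cox7a1 and Cox7a2 was -2.05 ± 0.76 in DSS mice and 0.00 ± 0.10 in control mice (SD, n = 3 each). The 2-sided exact permutation p was 0.1, the smallest that 3 against 3 allows (0.35 adjusted over 7 pairs). The same difference was -0.83 ± 0.19 in DSS+L-Arg mice.

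The other muscle-type and testis-type forms lay nearer to 0 than Cox7a1, and none was called in the fit without covariates. Cox8b was at -0.5 ± 0.16 (adjusted p = 0.097) and Cox8a at -0.11, and Cox6b2 was at -0.44 ± 0.15 (adjusted p = 0.13) and Cox6b1 at -0.19. With the median of the posterior colon markers as a covariate, chosen after seeing the data, Cox6b2 was called lower (-0.55, adjusted p = 0.014). Cox6a2 was at -0.08 and Cox6a1 at -0.21 ± 0.08 (adjusted p = 0.15). Cox7b2, at 0.18, was the 1 member below the filter on dim genes, and Cox7b was at -0.03. Cox8b, Cox8c and Ndufa4l2 passed the filter but lay near its floor of 5.89, with control means of 6.3, 5.92 and 6.05. Cox5a and Cox5b, which have a single form in mammals, were at -0.05 and -0.07. Ndufa4l2, a hypoxia-inducible relative of Ndufa4, was at -0.16 and Ndufa4 at -0.17.

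**Figure D4:**
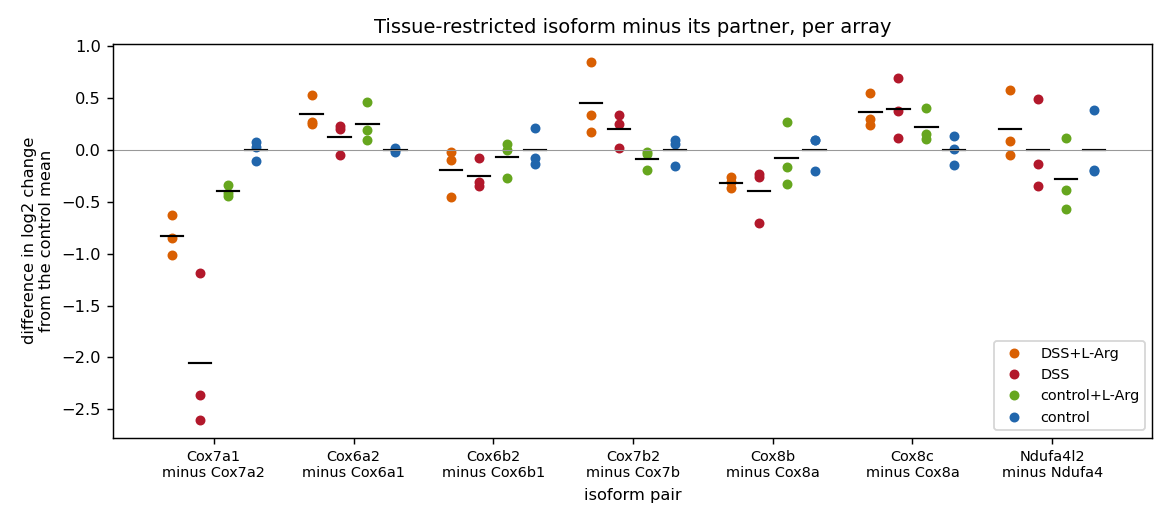
Difference between the log2 changes of a tissue-restricted isoform and its partner on each array, both taken from the control mean. Points are mice and bars are group means (n = 3). Cox7a1 minus Cox7a2 lies at -2.05 in the DSS group and at -0.83 in the DSS+L-Arg group, below the other pairs.

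Muscle and fat cells are known to carry Cox7a1, so markers of both were read beside it. The median of 14 smooth muscle markers lay between -1.32 and -0.65 from the control mean in DSS mice, and between -0.42 and 0.71 in control mice. All 14 stood lower in DSS and 0 were called. For 13 skeletal and cardiac muscle markers the median lay between -0.11 and -0.02 in DSS mice and between -0.04 and 0.03 in control mice, and Myl1 was called lower (-0.87 ± 0.19, adjusted p = 0.026). For 12 adipocyte markers it lay between -0.32 and -0.16 in DSS mice and between -0.19 and 0.39 in control mice, and Dio2, which activates thyroid hormone, was called higher (1.1 ± 0.24, adjusted p = 0.03). With the smooth muscle median as a covariate in limma, chosen after seeing the data, Cox7a1 stayed called (-1.89, adjusted p = 0.018). Ndufa2 (-0.96, adjusted p = 0.052) and Ndufa1 (-0.66, adjusted p = 0.066) were not called. Their log2 fold changes were no smaller in size than without the covariate (-0.92 and -0.58). The smooth muscle median was itself lower in all DSS mice than in all control mice, so this fit cannot separate muscle content from DSS. The part of muscle and of the other cell types in these differences was not tested.

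The second comparison asks whether L-Arg given after DSS altered these transcripts. No member was called higher or lower in DSS+L-Arg than in DSS colons, against 0.115% of all genes higher and 0.522% lower. At an unadjusted p under 0.05 limma gave 10 members (12.8%), all higher, against 13.5% of all genes. The unequal-variance test gave 0, also after adjustment, and SAM, which could call none after adjustment, gave 4. The log2 fold change was above 0 in 65 of 78 members, against 62.8% of all genes, and the median was 0.09, against 0.06 over all genes. In 10 members (12.8%) all DSS+L-Arg values lay above all DSS values, against 11.0% of all genes, which is near the background. Immune markers moved beside them: 5 of 14 neutrophil markers were called lower in DSS+L-Arg than in DSS colons and 0 higher (median log2 fold change -2.06), and 4 of 12 monocyte and macrophage markers were called lower and 0 higher (median -1.04). Array medians of the neutrophil markers, from the control mean, lay between 0.16 and 0.52 in DSS+L-Arg mice and between 1.25 and 3.91 in DSS mice, and their part in the members' values was not tested. Array medians of the 14 smooth muscle markers lay between -1.12 and -0.24 from the control mean in DSS+L-Arg mice. In DSS mice they lay between -1.32 and -0.65. Their median log2 fold change, DSS+L-Arg over DSS, was 0.14, with 0 called, and their part was not tested either. The DSS arrays enter this comparison and the first, so opposite signs in them are not independent of each other.

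Cox7a1 again had the largest value. Its log2 values were 10.64, 10.91 and 10.37 in DSS+L-Arg mice, against 10.11, 8.91 and 8.83 in DSS mice. The groups did not overlap, and the mouse of the DSS group that lay nearest was DSS mouse 1. The log2 fold change was 1.35 ± 0.28 (2.56-fold, adjusted p = 0.06), and without DSS mouse 1 it was 1.77 (adjusted p = 0.00085). Ndufa2 had log2 values of 10.15, 10.29 and 10.1 in DSS+L-Arg mice, against 9.47, 8.89 and 9.82 in DSS mice (0.79 ± 0.18, adjusted p = 0.091, and called without DSS mouse 3, at 1.0 with an adjusted p of 0.015). In the DSS+L-Arg group all Ndufa2 values were thus higher than in the DSS group, and they overlapped with the control values. Ndufa1 was at 0.21 ± 0.14 (adjusted p = 0.53), with overlapping groups.

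By complex, the median log2 fold change of DSS+L-Arg over DSS was 0.11 in complex I, 0.07 in complex II, 0.11 in complex III, 0.07 in complex IV and 0.03 in complex V. The highest member after Cox7a1 and Ndufa2 was Ndufs6, at 0.52. The highest members of complexes V, II and III were Atp5k, a small membrane subunit of ATP synthase (0.38 ± 0.16, adjusted p = 0.33), Sdha (0.24) and Uqcr11 (0.19). Atp5b and Atp5a1 were at -0.01 and 0.03. The median over all members was 0.04 without DSS mouse 2 and 0.15 without DSS mouse 3, and without DSS mouse 3 there were 34 members whose DSS+L-Arg values all lay above their DSS values, against 19.0% of all genes.

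Set against control mice, DSS+L-Arg mice showed 0 members called higher or lower, against 0.0301% and 0.0351% of all genes. Limma gave 7 members (9.0%) at an unadjusted p under 0.05, against 12.6% of all genes. The unequal-variance test gave 6, with none after adjustment, and SAM, which could call none after adjustment, gave 7. The median was -0.06, against 0.03 over all genes and -0.01 over those that passed the filter on dim genes. In 14 members (17.9%) all DSS+L-Arg values lay below all control values, against 9.69% of all genes and 12.5% of those that passed the filter. Cox7a1 was at -0.66 ± 0.28 (adjusted p = 0.37), with every DSS+L-Arg value below every control value. Set against control+L-Arg mice, 0 members were called in either direction, against 0.201% of all genes higher and 0.105% lower, with 8 members (10.3%) at an unadjusted p under 0.05 in limma, against 15.6% of all genes, 7 in the unequal-variance test and 6 in SAM. The lowest adjusted p was that of Uqcrb, a ubiquinone-binding subunit of complex III (-0.38, adjusted p = 0.095).

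L-Arg without DSS left the members close to the controls. 0 members were called in control+L-Arg against control colons, and 0.0% of all genes were called higher and 0.0% lower. At an unadjusted p under 0.05 there were 0 members in limma, against 3.4% of all genes, 4 in the unequal-variance test and 3 in SAM. The median was -0.03, against -0.01 over all genes. For 76 of 78 members (97.4%) the 95% interval stayed within a 1.5-fold change, against 83.6% of all genes. The lowest value was that of Ndufs6, at -0.48, with 10.17, 10.68 and 9.81 in control+L-Arg mice, against 10.54, 10.7 and 10.84 in control mice. These mice differed among themselves: 36, 3 and 47 of the 78 members lay below every control value in control+L-Arg mice 1, 2 and 3, against 35.3%, 24.4% and 33.2% of all genes, and 44 members lay above every control value in control+L-Arg mouse 2, against 28.2% of all genes. The counts below every control value were 34, 34 and 46 in DSS+L-Arg mice 1, 2 and 3, against 31.0%, 26.2% and 26.6% of all genes, and 56, 63 and 37 in DSS mice 1, 2 and 3, where the share of all genes was at most 38.6% on each array.

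Whether L-Arg acted otherwise after DSS than without it was tested as an interaction. 0 members were called, against 0.01% of all genes higher and 0.0652% lower, with 8 members (10.3%) at an unadjusted p under 0.05, all higher, against 10.8% of all genes. The median over the members was 0.11, against 0.06 over all genes. Cox7a1 was at 1.66 ± 0.39 (adjusted p = 0.18), and without DSS mouse 1 at 2.08 (adjusted p = 0.0047), and Ndufs6 at 1 (adjusted p = 0.34). Lower values with L-Arg in mice without DSS are part of both interactions. Cox7a1 stood there at -0.31, with every control+L-Arg value below every control value, and Ndufs6 at -0.48, and neither was called. With all arrays, a difference in the response of these 2 genes to L-Arg was thus not shown at this number of mice.

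**Figure D5:**
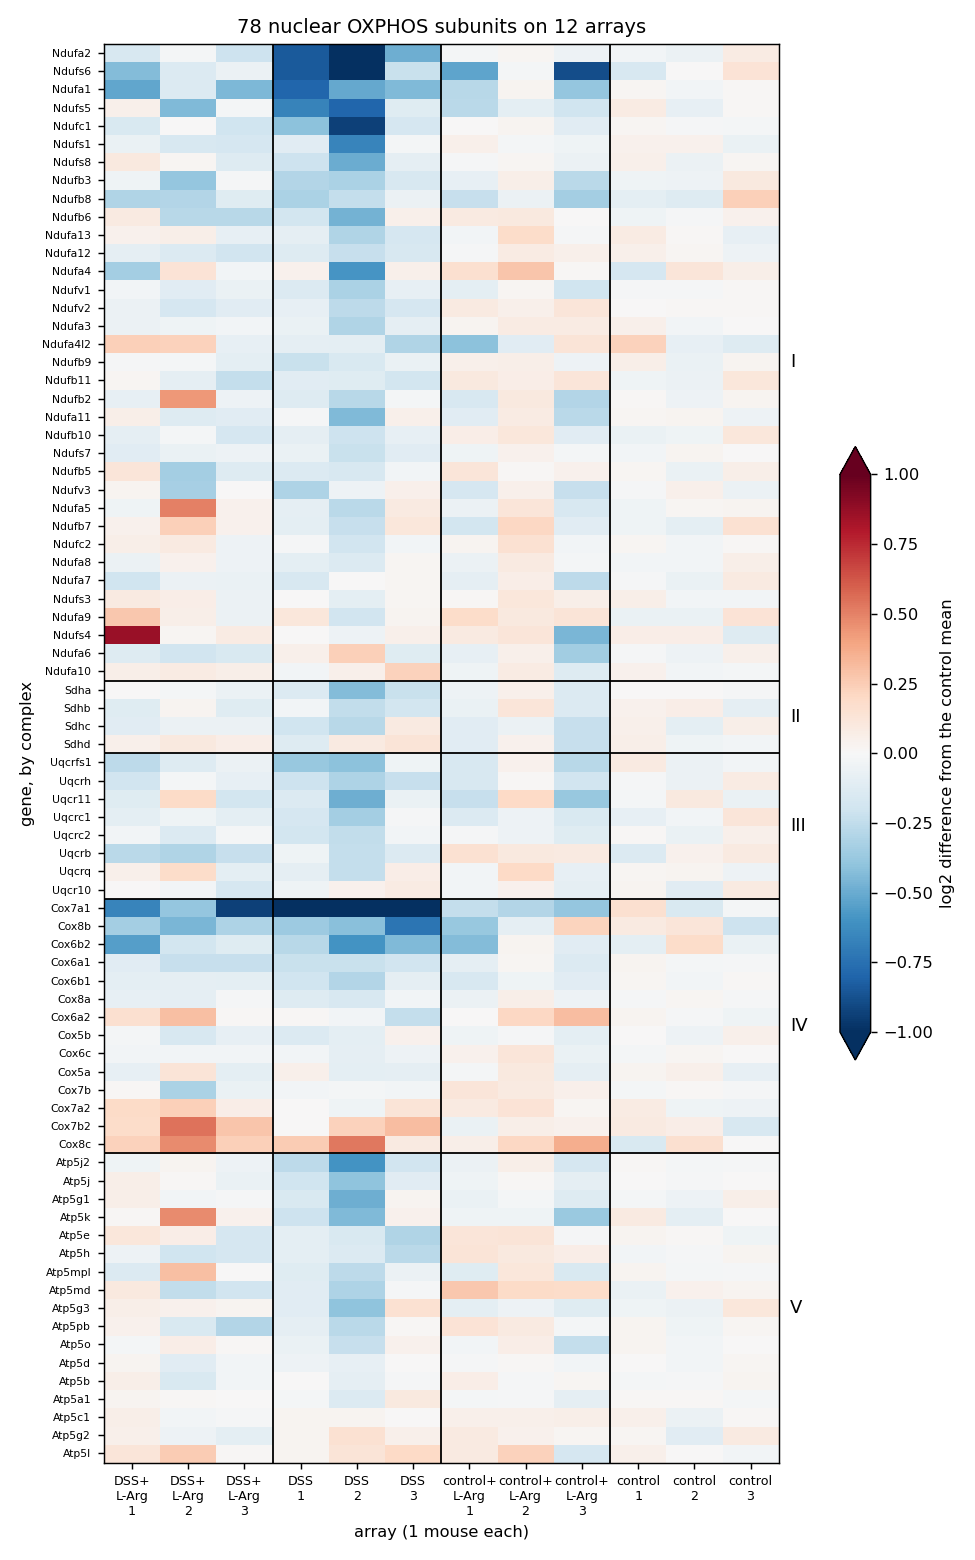
Log2 difference of each of the 78 members from its control mean on the 12 arrays, by complex, with genes ordered within a complex by their DSS minus control value. The colour scale ends at 1 in either direction, which Cox7a1 passes in all DSS mice. Blue marks values below the control mean. By the separate count of members below every control value, DSS mouse 2 has the most, 63 of 78.

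Taken gene by gene, replicate arrays differed less for the members than for all genes. The median SD within a group was 0.113 on the log2 scale over the members, against 0.155 over all genes. By group it was 0.087 in DSS+L-Arg, 0.128 in DSS, 0.086 in control+L-Arg and 0.055 in control mice. This SD does not measure members that move together on an array. Their median from the control mean was -0.11, -0.24 and -0.03 in DSS mice 1, 2 and 3. 15 members had more than 1 probe set of their own, and in 14 of them all probe sets gave the same sign for DSS against control. The exception was Ndufs3, at -0.03 and 0.00. The median log2 fold change, DSS over control, was -0.14 in the 35 members with a promoter match and also -0.14 in the 30 without.

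Genes around the complexes were read from lists. Of 44 assembly factors measured, 5 were called lower in DSS than in control colons, against 2.23% of all genes, and 0 higher, against 1.8%. 39 stood below 0, against 53.1% of all genes, and the median was -0.25, against -0.01 over all genes. The lowest was Lyrm7, the chaperone that holds the Rieske protein Uqcrfs1 before it enters complex III, with log2 values of 6.18, 5.86 and 6.12 in DSS mice, against 7.13, 7.09 and 7.04 in control mice (-1.03 ± 0.10, adjusted p = 0.00055). Bcs1l, which inserts the same protein, was at -0.69 (adjusted p = 0.039). Timmdc1 and Ndufaf2, which help build complex I, were at -0.56 (adjusted p = 0.048) and -0.49 (adjusted p = 0.03), and Coa6, which serves the copper site of complex IV, was at -0.4 (adjusted p = 0.048). With each of the 12 arrays left out in turn, Lyrm7 stayed called 12 times, Ndufaf2 7 times, Bcs1l 4 times, and Timmdc1 and Coa6 2 times each. The substrate of Lyrm7 and Bcs1l, Uqcrfs1, was not called itself.

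Lyrm7 also differed with L-Arg. Its log2 values were 6.6, 6.68 and 6.64 in DSS+L-Arg mice, all above those of the DSS mice and all below those of the control mice, and the log2 fold change over DSS was 0.59 ± 0.10 (adjusted p = 0.029). The DSS values lay near 5.89, the floor of the filter on dim genes. In control+L-Arg mice Lyrm7 was at 6.8, 6.79 and 6.6, all below the control mice, though not called there. The interaction for Lyrm7 was 0.94 ± 0.14 (adjusted p = 0.036 in limma), so the effect of L-Arg differed with and without DSS. This interaction joins a lower value with L-Arg in mice without DSS to a higher value after DSS. With each array left out in turn these 2 calls were less firm than that of DSS against control: the adjusted p reached 0.13 in both, and any 1 of the control or DSS+L-Arg mice or control+L-Arg mouse 1, left out, ended both calls, and control+L-Arg mouse 3 ended that of the interaction. It was the 1 assembly factor called in either of these comparisons. Of the 15 regulators of mitochondrial genes, Ppargc1b, a coactivator of nuclear respiratory factors, was called lower in DSS (9.47, 8.89 and 9.26, against 9.86, 9.87 and 9.84 in control mice; -0.65 ± 0.14, adjusted p = 0.026). Without control mouse 1, 2 or 3 or DSS mouse 2 it was not called (highest adjusted p = 0.096). The related Ppargc1a was at -0.92 ± 0.31 (adjusted p = 0.12), Nrf1 at 0.00, Gabpa at -0.02, Yy1 at -0.03 and Esrra at -0.12. Among the 7 subunits and carriers outside the symbol patterns, 0 were called, and Cox4i1, the ubiquitous form of complex IV subunit 4, was at -0.23 ± 0.12 (adjusted p = 0.31).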

How the data were processed

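Colon RNA of 12 mice was hybridized to Affymetrix mouse Gene ST arrays, 1 array a mouse. The authors deposited log2 signals per probe set, background-corrected, quantile-normalized and summarized by RMA in Affymetrix Expression Console 1.1, and their processing notes name build mm9. Arrays have no read depth, and their number limits the precision. Groups and mouse numbers came from the labels.

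Of 35556 probe sets, 21789 named exactly 1 gene, 1621 named several and 12146 were not in the platform table; the last 2 kinds were left out. All 78 members matched the RefSeq gene table by Entrez identifier. Arrays of a group differed by over 0.01 in at least 95.1% of genes, so none repeats another. The test was limma 3.58.1 (R 4.3.3; 1 mean per group, 8 residual and 3.37 prior degrees of freedom, Benjamini-Hochberg over all genes). The study used SAM with p under 0.01 and a fold change over 2. Here SAM was run as an alternative at p and adjusted p under 0.05. Its reference pooled all 20 label orders, the true one and its mirror among them, so no adjusted p could fall under 0.05. The study's thresholds were applied as another alternative, to the unadjusted limma p and not to SAM. Scripts were tested on simulated data, and tables and plots were made with Python 3.11.15, pandas 2.3.3, scipy 1.17.1 and matplotlib 3.10.9.

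The members and lists were chosen with earlier results of these data known. Values are given for called members (up to 10 in a comparison), core catalytic subunits, isoform families, the largest change in each complex and up to 4 called genes of each other list. Coa6, Ndufs5 and Ndufc1 were added after their values were seen. The filter on dim genes asked for over 5.89, the 30th percentile, on at least 3 arrays. Mouse numbers were checked as pairs: deviations of same-numbered arrays correlated at 0.205 to 0.477 between control and control+L-Arg mice, and not all above 0.1 for any other groups, and the labels give no litter or batch behind a number.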

Additional observations from a re-analysis of the deposited data

How the results depend on the processing

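In DSS against control colons the 3 members called lower were the same genes with a replicate block, further quantile normalization, the filter on dim genes, the mean of probe sets and a trended and robust prior. There were 0 in a fit of only the groups compared and by the unequal-variance test. SAM also gave 0, but it could call none at this threshold. There was 1 at the study's thresholds, applied to limma, and 1 with a smooth muscle covariate (Cox7a1 in both). Centred arrays gave 2 (Ndufa1 was lost), and a posterior colon covariate, added after seeing the data, gave 4 (Cox6b2 was gained). Array weights gave 6, and fits without any 1 array gave 1 to 6. With array weights DSS mice 2 and 3 weighed least (0.517 and 0.402). In DSS+L-Arg against DSS colons 1 member was called higher with the replicate block (Cox7a1, adjusted p = 0.049), with centred arrays (Cox7a1), with array weights (Ndufa2) and at the study's thresholds (Cox7a1), and 0 to 1 without any 1 array. The interaction gave 1 at the study's thresholds and 0 to 1 without any 1 array. The replicate block changed no other count of calls. For control+L-Arg against control, where same-numbered arrays deviated together, a block in a fit of those arrays alone, added after seeing the data, also gave 0 members.

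The median over the members kept its direction in DSS against control and in DSS+L-Arg against DSS under every alternative run. For DSS+L-Arg against control (-0.06) it was 0.00 with centred arrays, -0.03 with further quantile normalization and -0.09 with the smooth muscle covariate. For DSS+L-Arg against control+L-Arg (-0.02) it was 0.04 with centred arrays and -0.05 to 0.03 without any 1 array. Of 530 recomputed medians of single complexes, 30 moved by more than the spread between replicates. The causes were not tested. With 3 mice a group, an exact test of 1 gene cannot go below p = 0.1, and mitochondrially encoded subunits, protein and enzyme activity were not analysed here.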
